A study of Mus musculus with 6 samples.

Results

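The gene table held a row for each of 8 long noncoding RNAs of the fetal mouse brain, namely Malat1, Neat1, Miat, Rmst, Sox2ot, Gas5, Snhg11 and Pantr1, out of 45583 rows in all. They were chosen by name, as nuclear and neural long noncoding RNAs outside the imprinted and Dlx loci. The rule names genes and uses no measured value, but the choice was made with earlier results of these data known. All 8 had enough counts to be tested. The tissue was cerebral cortex of 6 male fetuses at GD15.5 (gestational day), labelled wild type and SRY + in the strain Cyp19-EGFP. Transgenic mice of this strain carry an added copy of the aromatase gene Cyp19a1 with a green fluorescent protein gene in it. Whether these fetuses carried it is not stated beyond the label wild type. Dams had received BPA (bisphenol A, a plastic monomer that can bind estrogen receptors) at 50 µg/kg or vehicle (peanut oil) by subcutaneous injection from GD10.5 to GD14.5, and each group had 3 fetuses with 1 library each. The strain is shared by both groups. Total counts were 5030652 to 7180835 in vehicle and 3444601 to 6426857 in BPA. The labels name a fetus but no dam, so p-values measure the spread between these fetuses, some of which may be littermates.

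A long noncoding RNA is a transcript that acts as RNA, or by being transcribed, and is not translated into a known protein. Malat1 is held in nuclear speckles, which store splicing factors, and Neat1 is the scaffold of the paraspeckle, a separate nuclear body. Miat lies in a nuclear domain of its own in neurons, and Rmst, Sox2ot and Pantr1 are tied to neural transcription factors, Rmst as a partner of the Sox2 protein, Sox2ot as the transcript that spans the Sox2 gene and Pantr1 as the neighbor of Pou3f3. Gas5 and Snhg11 are host genes whose introns carry small nucleolar RNAs (snoRNAs), the guides of ribosomal RNA modification.

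Sequence features of Miat, Malat1, Neat1 and Gas5 are shown first, from the GENCODE M21 transcripts on GRCm38, 5′ to 3′. Miat carries repeats of TACTAAC, the letters of the intron branch point that splicing factor Sf1 binds. A Miat transcript of 8758 bases held 6 copies, all in its last exon, exon 7 of 7. The stretches with these copies lie at chr5:112217309-112217460 and chr5:112216752-112216812, minus strand, and the capitals mark the repeat.
Miat 1: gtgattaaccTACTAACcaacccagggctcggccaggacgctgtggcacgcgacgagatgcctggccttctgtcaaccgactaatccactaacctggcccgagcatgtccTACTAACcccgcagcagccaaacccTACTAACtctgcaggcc
Miat 2: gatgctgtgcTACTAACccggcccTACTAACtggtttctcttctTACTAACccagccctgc
Searched on the transcript strand alone, at least 1 copy was present in 716 of 18930 transcripts (3.78%) of the GENCODE long noncoding RNA set. Counting only transcripts of 7000 to 10000 bases, the count was 7 of 35. Exactly 3 transcripts of the set held 6 copies, of which 2 were Miat transcripts. Among the other members, the most copies in any transcript were 1 for Neat1 and Gas5 and 0 for Malat1, Rmst, Sox2ot, Snhg11 and Pantr1.

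Malat1 and the long form of Neat1 are neighbors on chromosome 19 and lack the usual poly(A) tail, since their 3′ ends are cut by RNase P and protected by a triple helix between U-rich motifs and an A-rich tract. Those elements can be read in both genes. The 110 bases that end in the A-rich tract are at chr19:5795982-5796091 for Malat1 and chr19:5824708-5824817 for Neat1, both on the minus strand, and capitals mark the stretches of at least 10 bases that both windows hold.
Malat1: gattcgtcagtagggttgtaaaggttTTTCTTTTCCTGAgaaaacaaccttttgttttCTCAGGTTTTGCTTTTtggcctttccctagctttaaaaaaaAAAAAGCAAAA
Neat1: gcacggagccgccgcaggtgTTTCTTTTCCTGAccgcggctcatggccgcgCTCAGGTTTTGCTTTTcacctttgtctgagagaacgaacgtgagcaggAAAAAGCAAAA
The shared stretches were 13, 16 and 11 bases long, in the same order. The annotated Neat1 transcript of 20771 bases ended at the tract, whereas in the Malat1 transcript of 6983 bases another 292 annotated bases followed it.

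Gas5 has a start of pyrimidines, as transcripts of the translation machinery do, and is degraded when translated. The first 40 bases of its longest annotated transcript (2556 bases) at chr1:161035166-161035205, plus strand, are printed with the opening pyrimidines in capitals.
Gas5: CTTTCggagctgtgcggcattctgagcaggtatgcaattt
This start, read as the first 12 bases, stood within the first 20 bases of 7 of the 25 annotated Gas5 transcripts.

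The levels of the members spanned a wide range and split into 3 tiers. Levels between genes are compared as CPM per kilobase of exon (CPM, counts scaled to the library total), with the length taken from the union of annotated exons. Miat had the highest level at 97.4 CPM per kilobase ± 20.6 (SD over 6 libraries), followed by Malat1 at 59.8 ± 14.9 and Gas5 at 36.5 ± 8.07. On this length Miat was above Malat1 and Malat1 above Gas5 in each of the 6 libraries, although the ranges of Malat1 and Gas5 overlapped. The middle tier held Snhg11 at 3.86 ± 0.459, Pantr1 at 3.35 ± 0.303 and Sox2ot at 3.31 ± 0.556 CPM per kilobase. These 3 were not separated, as the range of each overlapped the next. Rmst at 0.308 ± 0.0736 and Neat1 at 0.187 ± 0.0547 CPM per kilobase formed the lowest tier, with overlapping ranges. Gas5 was 9.48 times the level of Snhg11, and Sox2ot was 10.7 times the level of Rmst, so the tiers themselves did not overlap. Taking the longest transcript as the length moved Sox2ot (11.0 CPM per kilobase) and Pantr1 (7.17) above Snhg11. By mean it left the top 3 and the bottom 2 in place. Gas5 then averaged 53.8 (41.9 to 72.9) against 59.8 (43.3 to 74.6) for Malat1. Malat1 was then not above Gas5 in every library. For Malat1 and Neat1 both lengths were equal (20771 bases for Neat1), so this check could not change their levels. Neat1 has 4 annotated transcripts, and a shorter source of its counts would raise its level per kilobase, which was not tested. The same holds for Gas5, whose 25 annotated transcripts include 1 of 636 bases. Its place within the top 3 may therefore depend on the length taken. Selection of polyadenylated RNA is not given, and Malat1 and long Neat1 lack the usual tail. Their place against other members may therefore depend on library preparation.

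**Figure D1:**
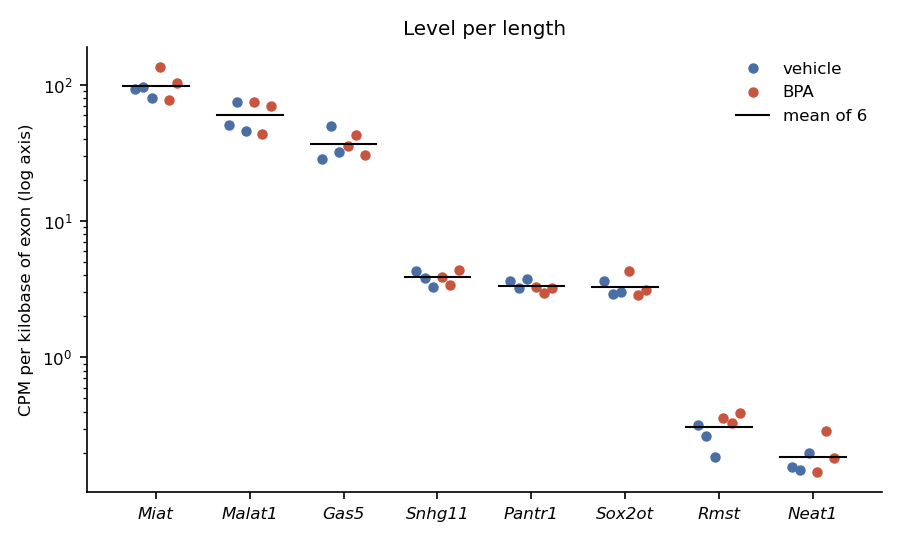
Level of each long noncoding RNA per kilobase of exon (CPM per kilobase, log axis) in the 3 vehicle (blue) and 3 BPA (red) libraries, with a line at the mean of all 6. Miat, Malat1 and Gas5 lie above 28 in every library, Snhg11, Pantr1 and Sox2ot between 2.89 and 4.38, and Rmst and Neat1 at or below 0.393.

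By mean CPM, Miat ranked 1 and Malat1 ranked 3 among the 6830 rows that GENCODE M21 places in its long noncoding RNA set, Gas5 ranked 11, Sox2ot 28, Pantr1 63, Neat1 222 and Rmst 349. Snhg11 has no rank, because that annotation types it as protein coding whereas RefSeq lists it as a long noncoding RNA. Miat and Malat1 together took 85.0% of the counts on the 8 members.

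The libraries compared transcripts after maternal BPA and after vehicle, and no member passed the test. None of them, 0 of 8, reached an adjusted p under 0.1 by the quasi-likelihood test of edgeR, beside 0 of 13741 genes tested (0%). At an unadjusted p under 0.05, 0 of the 8 passed, beside 302 of 13741 genes (2.20%). Fitted log2 fold changes, BPA minus vehicle, ran from -0.18 to 0.44 with a median of 0.12, 6 above and 2 below 0, while the median over all genes tested was 0.00157. Unadjusted p-values ran from 0.150 to 0.934.

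**Figure D2:**
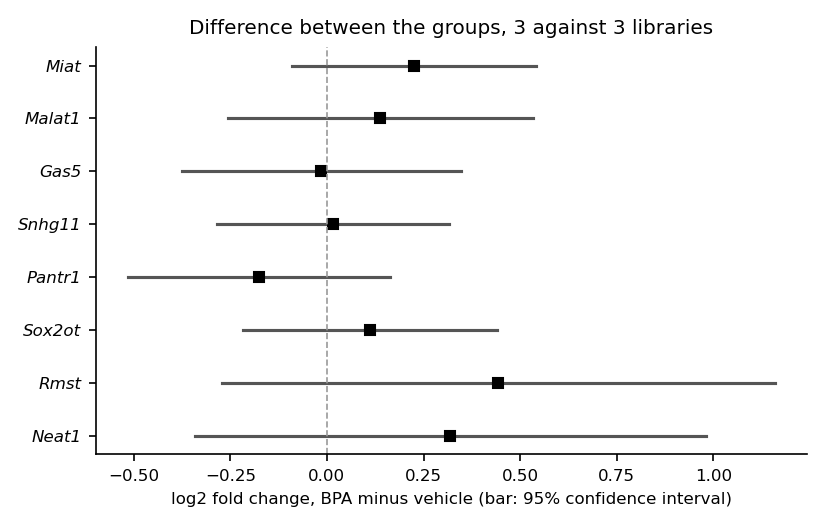
Log2 fold change of each member, BPA minus vehicle, as a square, with its 95% confidence interval from the quasi-likelihood fit over 3 against 3 libraries. All 8 intervals cross 0, the widest being that of Rmst from -0.27 to 1.16.

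The speckle and paraspeckle RNAs are described first. Malat1 (ENSMUSG00000092341.3, chr19:5795690-5802672, minus strand, 1 exon in its main transcript) was at 352, 520 and 319 CPM in vehicle replicates 1, 2 and 3 and at 521, 302 and 490 CPM in BPA replicates 1, 2 and 3. Vehicle replicate 2 lay next to the highest BPA library, and BPA replicate 2 was the lowest of all 6. The log2 fold change was 0.14 (SE 0.186, 95% interval -0.26 to 0.53, unadjusted p = 0.469, adjusted p = 1 by edgeR). Its spread within groups was far above that of other abundant genes. The pooled within-group SD of log2 CPM was 0.40, larger than in 99.8% of the 2712 genes averaging at least 100 CPM, whose median was 0.12.

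Neat1 (ENSMUSG00000092274.3, chr19:5824708-5845478, minus strand) was close to the limit of counting, with 13 to 37 counts per library. It stood at 3.24, 3.10 and 4.14 CPM in vehicle and at 2.98, 6.01 and 3.79 CPM in BPA, so that BPA replicate 2, the lowest library for Malat1, was the highest for Neat1. The 95% counting interval (exact Poisson) of that library ran from 4.23 to 8.29 CPM and overlapped that of vehicle replicate 3, from 2.56 to 6.33 CPM. The log2 fold change of 0.32 (SE 0.312, 95% interval -0.34 to 0.98, unadjusted p = 0.321) turned to -0.06 without BPA replicate 2. Within a library Malat1 exceeded Neat1 by a log2 ratio of 5.57 to 7.29. Vehicle libraries averaged 6.67 ± 0.546 (SD, n = 3) and BPA libraries 6.58 ± 0.899 (SD, n = 3) (exact two-sided permutation p = 1, adjusted p = 1 over 3 ratios, smallest p possible 0.1).

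Miat (ENSMUSG00000097767.8, chr5:112213228-112229395, minus strand), whose repeats are printed above, was at 865, 896 and 743 CPM in vehicle and 1251, 725 and 952 CPM in BPA. The BPA group held both the highest and the lowest library, and its 3 libraries enclosed those of vehicle. The log2 fold change of 0.23 (SE 0.149, 95% interval -0.09 to 0.54) had the smallest p of the 8 members, unadjusted p = 0.150. It came to 0.0037 without BPA replicate 1 (unadjusted p = 0.977) and to 0.40 without BPA replicate 2 (unadjusted p = 0.00535). Its within-group SD of log2 CPM, 0.30, was larger than in 98.6% of genes averaging at least 100 CPM.

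**Figure D3:**
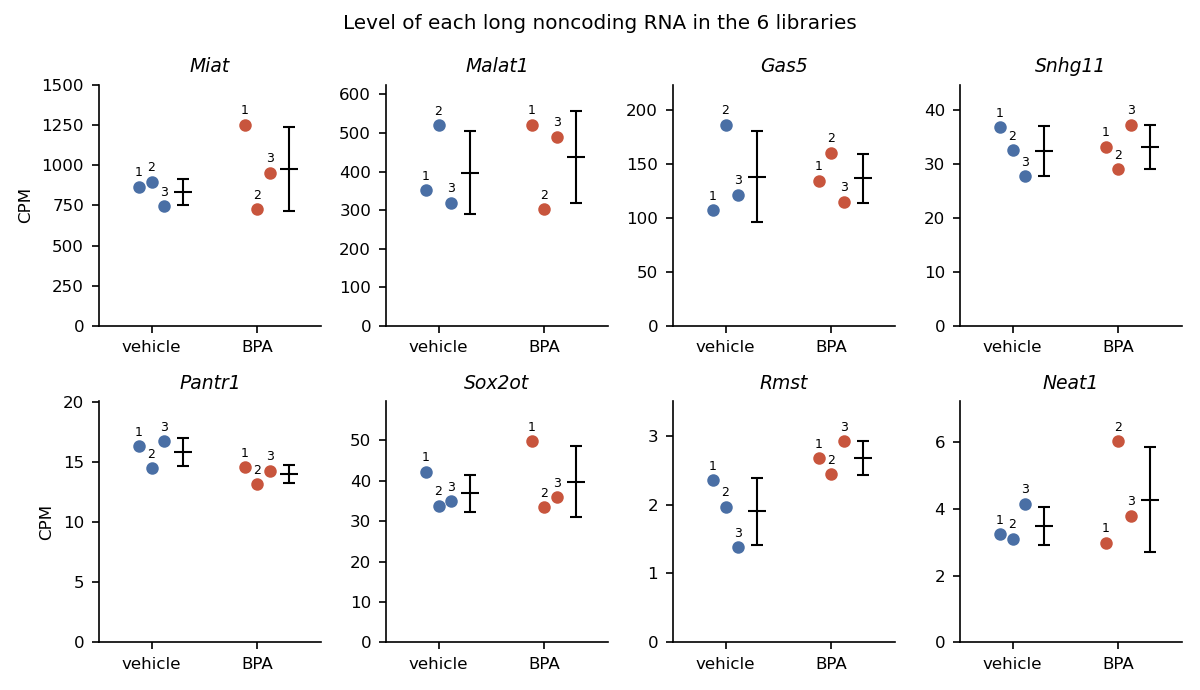
Level of each member (CPM, axis from 0) in vehicle (blue) and BPA (red) libraries, with replicate numbers above the points and the group mean with its SD (n = 3) in black beside them. Vehicle replicate 2 and BPA replicate 2 are the highest libraries for Gas5, BPA replicate 2 is the lowest for Malat1 and Miat, and Rmst is the only member whose groups do not overlap.

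Vehicle replicate 2 and BPA replicate 2 also stood apart in markers of choroid plexus, the secretory epithelium of the brain ventricles. Ttr, its main product, had 1386 and 1898 counts there and 15 to 76 in the other 4 libraries, and the summed level of the 6 choroid plexus markers was 224 and 356 CPM against 10.6 to 19.3 CPM. Folr1, Kcne2 and Clic6 were also highest in these 2 libraries. Otx2 did not set them apart, with 48 and 54 counts there and 52 in vehicle replicate 1. Kl had 1 to 4 counts in every library. The split of the libraries was made on Ttr counts alone. None of the 6 markers was at 0 in every library. Without these 2 libraries, a choice made after the counts were seen, Malat1 passed the adjusted threshold with a log2 fold change of 0.60 (SE 0.112, adjusted p = 0.0315 by edgeR), as 1 of 8 members beside 15 of 13643 genes (0.110%). Miat then had a log2 fold change of 0.46 (SE 0.124, unadjusted p = 9.13e-04, adjusted p = 0.267), so that 2 of the 8 members were under an unadjusted p of 0.05 beside 954 genes (6.99%). That fit held vehicle replicates 1 and 3 and BPA replicates 1 and 3. For both genes it left out the highest vehicle library and the lowest BPA library, which could only raise the difference. Its p-values are therefore no separate evidence of a difference. Between the 2 choroid-rich libraries the difference ran the other way, at -0.78 for Malat1 and -0.31 for Miat on the log2 scale, against 0.59 and 0.44 between the other libraries. With all 6 libraries and a term for this split, Malat1 stood at 0.14 (unadjusted p = 0.416) and Miat at 0.20 (unadjusted p = 0.127), and 0 of 8 members passed the adjusted threshold, beside 3 of 13741 genes (0.0218%). At an unadjusted p under 0.05 the members' count was also 0, beside 401 genes (2.92%). The part of choroid plexus tissue in these values was not tested.

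Neither snoRNA host gene passed the test. Gas5 (ENSMUSG00000053332.13, chr1:161034422-161038539, plus strand) was at 107, 186 and 121 CPM in vehicle and 134, 160 and 115 CPM in BPA. Its 2 highest libraries were the choroid-rich ones, and the BPA libraries lay within the range of vehicle. The log2 fold change was -0.01 (SE 0.170, 95% interval -0.38 to 0.35, unadjusted p = 0.934), and the within-group SD of 0.34 was larger than in 99.3% of genes averaging at least 100 CPM. The direction for Gas5 is not fixed, since it turned positive in limma-voom and when vehicle replicate 2 (0.27), BPA replicate 1 or BPA replicate 3 (0.09) was left out. Snhg11 (ENSMUSG00000044349.15, chr2:158375638-158386145, plus strand), a host gene expressed mainly in neurons, was at 36.9, 32.7 and 27.8 CPM in vehicle and 33.3, 29.1 and 37.3 CPM in BPA, with a log2 fold change of 0.02 (SE 0.141, 95% interval -0.28 to 0.32, unadjusted p = 0.913). Its within-group SD of 0.19 was near the median of 0.20 for genes averaging 1 to 100 CPM.

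**Figure D4:**
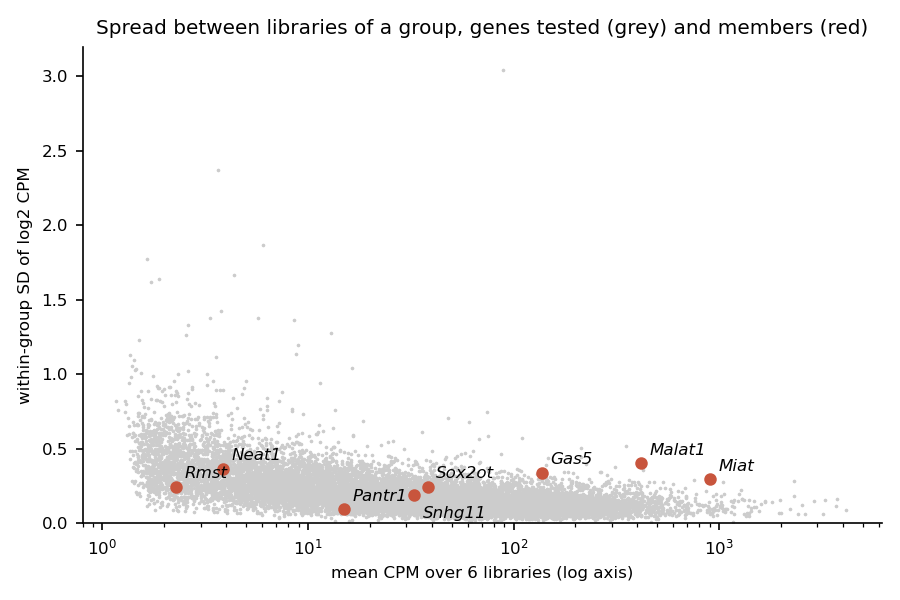
Pooled within-group SD of log2 CPM (vertical axis) against mean CPM over 6 libraries (horizontal, log axis) for the 13741 genes tested (grey), with the members in red. Malat1, Miat and Gas5 lie above nearly all genes of their level, at 0.40, 0.30 and 0.34, whereas Pantr1 lies low at 0.094.

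The RNAs tied to neural transcription factors came next. Sox2ot (ENSMUSG00000105265.4, chr3:34104270-34682619, plus strand) was at 42.2, 33.8 and 34.9 CPM in vehicle and 49.8, 33.5 and 35.9 CPM in BPA. Apart from BPA replicate 1 and vehicle replicate 1 the libraries lay within 33.5 to 35.9 CPM. The log2 fold change was 0.11 (SE 0.154, 95% interval -0.22 to 0.44, unadjusted p = 0.481) and fell to -0.10 without BPA replicate 1. Sox2, the gene for a transcription factor of neural progenitors, lies inside the Sox2ot span without sharing exons and was at 145, 150 and 133 CPM in vehicle and 137, 122 and 110 CPM in BPA, with a log2 fold change of -0.21 (SE 0.106, unadjusted p = 0.0677). The log2 ratio of Sox2ot to Sox2 was -1.77, -2.14 and -1.92 in vehicle and -1.45, -1.86 and -1.61 in BPA. All 3 BPA libraries were above the vehicle mean, by 0.30 on average, but the groups overlapped (exact two-sided permutation p = 0.2, adjusted p = 0.6 over 3 ratios). The difference was 0.28 between the choroid-rich libraries and 0.31 between the others.

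Pantr1 (ENSMUSG00000060424.14, chr1:42590782-42694842, minus strand) was the least variable member, with 111, 103 and 85 counts in vehicle and 93, 81 and 49 in BPA. The BPA libraries came to 14.6, 13.2 and 14.3 CPM and vehicle replicates 1 and 3 to 16.3 and 16.8 CPM, while vehicle replicate 2 fell among the BPA libraries, just below BPA replicate 1. Its fold change of -0.18 on the log2 scale (SE 0.159, 95% interval -0.51 to 0.16, unadjusted p = 0.285) kept its sign under every alternative tried. Its within-group SD of 0.094 was larger than in only 9.66% of genes averaging 1 to 100 CPM. Pou3f3, a transcription factor of upper-layer neurons that starts 926 bases away on the opposite strand, averaged 610 CPM ± 42.0 (SD, n = 3) without and 576 CPM ± 23.6 (SD, n = 3) with BPA, with a log2 fold change of -0.08 (unadjusted p = 0.381). The log2 ratio of Pantr1 to Pou3f3 averaged -5.24 in vehicle and -5.33 in BPA (exact two-sided permutation p = 0.6, adjusted p = 0.9 over 3 ratios).

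Rmst (ENSMUSG00000112117.1, chr10:92071037-92165170, minus strand) was the only member whose groups did not overlap, beside 928 of 13741 genes (6.75%) in either direction. It rested on 16, 14 and 7 counts in vehicle and 17, 15 and 10 in BPA, or 2.35, 1.97 and 1.38 CPM against 2.67, 2.44 and 2.92 CPM. The counting intervals of the lowest and the highest library, 0.555 to 2.84 CPM for vehicle replicate 3 and 1.40 to 5.37 CPM for BPA replicate 3, overlapped. They cover the counting error of single libraries. In the fit the log2 fold change was 0.44 (SE 0.337, 95% interval -0.27 to 1.16, unadjusted p = 0.207).

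A row inside the Rmst locus took more counts than Rmst itself in every library but vehicle replicate 1 and BPA replicate 2. Gm27544, a small RNA entry of 155 bases at chr10:92071661-92071815, minus strand, had 12, 27 and 15 counts in vehicle and 21, 14 and 13 in BPA. It is printed because its last 50 bases, in capitals, also lie in an exon of 1 of the 14 annotated Rmst transcripts.
Gm27544: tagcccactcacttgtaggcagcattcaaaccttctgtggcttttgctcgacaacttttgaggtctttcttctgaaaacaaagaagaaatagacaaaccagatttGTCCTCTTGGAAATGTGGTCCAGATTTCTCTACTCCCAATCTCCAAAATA
Gm27544 alone had a log2 fold change of 0.09 (unadjusted p = 0.789). With both rows summed, a choice made after the counts were seen, the log2 fold change was 0.25 (SE 0.255, unadjusted p = 0.336) and the groups overlapped.

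The other small RNA genes nested in the members were nearly all listed at 0. Of 33 nested small RNA genes with a row, 31 were at 0 in every library: all 3 microRNAs, 17 of 18 entries of the type misc_RNA and 11 of 12 snoRNA genes. All 10 snoRNA genes within the Gas5 span were at 0. The snoRNA gene Gm25129 in Snhg11 had 0 to 2 counts. A count of 0 allows up to 0.871 CPM in the shallowest library, counting error alone, on its unscaled total of 3444601 counts. In Miat, the misc_RNA entries Gm27627 at chr5:112217318-112217467 and Gm27882 at chr5:112216740-112216813, cover most of the TACTAAC stretches printed above and were also at 0.

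Overlapping rows limit how complete the counts of some members are. Rows on the same strand covered 19.9% of the exon bases of Gas5, 12.5% of Rmst and 7.74% of Miat, and antisense rows covered 26.3% of Rmst (Gm26700), 24.3% of Miat (Gm26953) and 6.49% of Malat1 (Gm37376). All 3 antisense rows were at 0 in every library. How a read on both rows was assigned, and whether strand was used, is not given in the sources used here. Of the distinct 50-base words of their transcripts, 50 bases being the read length, 1.25% to 7.41% also occurred in transcripts of other genes on the same strand, and 0 did for Pantr1.

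The 476 tested rows of the GENCODE long noncoding RNA set gave the class as a whole. At an unadjusted p under 0.05, 18 of them (3.78%) passed, 15 higher and 3 lower in BPA, beside 302 of all 13741 genes (2.20%), 140 higher (1.02%) and 162 lower (1.18%). The adjusted threshold was passed by 0 in both. The median log2 fold change of the set was 0.09. Vehicle libraries had 0.790% ± 0.0239 (SD, n = 3) of their counts on the set and BPA libraries 0.848% ± 0.0769 (SD, n = 3) (exact two-sided permutation p = 0.4). The difference of 0.0580 percentage points became 0.0229 without BPA replicate 1 (exact p = 0.7) and 0.0991 without BPA replicate 2 (exact p = 0.1, the smallest possible there). The share was lower in BPA by 0.0495 percentage points between the choroid-rich libraries and higher by 0.112 between the others.

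Genes around the members in 6 lists mostly followed the same picture, with 0 past the adjusted threshold in each. Of 17 tested nuclear speckle proteins, which share the speckle with Malat1, 0 were under an unadjusted p of 0.05 and the median log2 fold change was 0.08. Son, a speckle scaffold, stood at 0.21 (unadjusted p = 0.0794), the splicing factor Srsf6 at 0.13 (unadjusted p = 0.185) and the RNA helicase Ddx39b at 0.14 (unadjusted p = 0.203). Of 15 paraspeckle proteins, which bind Neat1, 0 passed, with a median of 0.03, and Taf15 had the smallest p at 0.13 (unadjusted p = 0.246), while Hnrnpk stood at 0.08. Of 14 other snoRNA host genes, 1 was higher and 0 lower at an unadjusted p under 0.05, with a median of 0.07. That gene, Snhg17, was at 31.9, 32.0 and 29.4 CPM in vehicle and 41.1, 31.7 and 42.0 CPM in BPA, a log2 fold change of 0.29 (unadjusted p = 0.0481), and its groups overlapped at BPA replicate 2. Snhg12 stood at 0.32 (unadjusted p = 0.0884) and Eif4a2, a translation initiation helicase, at 0.18 (unadjusted p = 0.0830).

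Nonsense-mediated decay degrades translated Gas5 transcripts. Of its 16 factors 0 passed, with a median of -0.03, Etf1 at -0.16 (unadjusted p = 0.133), Smg8 at -0.19 (unadjusted p = 0.134) and Smg9 at 0.12 (unadjusted p = 0.327). Of 20 other neural long noncoding RNAs, 1 was higher and 0 lower, with a median of 0.09. Mir17hg, the host of a microRNA cluster of proliferating cells, was at 12.6, 14.9 and 15.6 CPM in vehicle and 19.3, 18.4 and 16.3 CPM in BPA, a log2 fold change of 0.34 (unadjusted p = 0.0491). Gm26871, at 9 to 28 counts per library, had a log2 fold change of 0.68 (unadjusted p = 0.0777). Six3os1, transcribed beside the forebrain gene Six3, stood at -0.22 (unadjusted p = 0.140). Of 18 listed binding partners and neighbors, 16 were tested and 0 passed, with a median of 0.02. Sf1, named above for the TACTAAC letters, was not among those tested. Sox2 had the smallest p, followed by Atp11b at 0.21 (unadjusted p = 0.0904) and Khdrbs1 at -0.11 (unadjusted p = 0.260). Coding genes that overlapped a member or were the nearest on either side, and had enough counts, stood between -0.21 (Sox2 inside Sox2ot) and 0.21 (Atp11b, the nearest above Sox2ot at 1071487 bases). They included Frmd8 at 4224 bases from Neat1 (-0.14, unadjusted p = 0.297), Ralgapb at 23703 bases from Snhg11 (0.02) and Nedd1 at 519576 bases from Rmst (0.09). No list was set against other genes by a test.

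**Figure D5:**
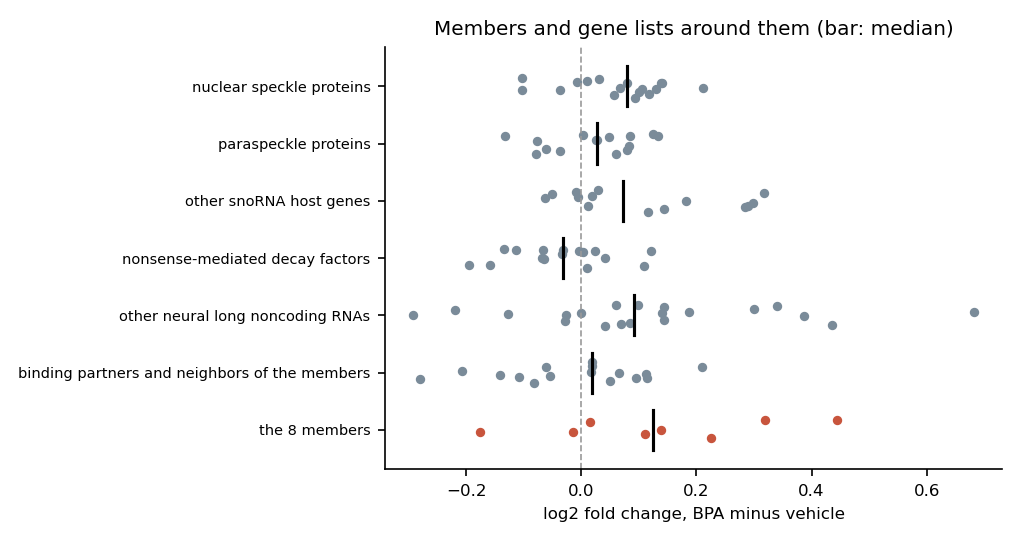
Log2 fold change, BPA minus vehicle, of the tested genes of 6 lists (grey) and of the 8 members (red), with the median as a bar. Medians lie between -0.03 and 0.09 in the lists and at 0.12 in the members, and every group has genes on both sides of 0.

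Marker lists place these values in the tissue. Summed levels overlapped between the groups for radial glia (2456 to 2516 CPM in vehicle and 2436 to 2508 CPM in BPA), neurons (10425 to 10980 and 10268 to 10908 CPM) and microglia (55.0 to 69.6 and 62.2 to 66.5 CPM). They also overlapped for intermediate progenitors, endothelium, pericytes and meninges, and erythroid cells (277 to 594 and 327 to 410 CPM). Cortical hem and Cajal-Retzius markers overlapped only narrowly, at 522 to 585 CPM in vehicle and 583 to 678 CPM in BPA. Markers of interneurons and ventral telencephalon were lower in BPA, at 998 to 1103 CPM against 1155 to 1293 CPM, with 5 of 11 lower at an unadjusted p under 0.05 (1.18% of all genes) and all 3 BPA libraries below all vehicle libraries for 7 of 11 (3.56% of all genes). The largest log2 fold changes were those of Lhx8 (-1.34) and Nkx2-1 (-1.25), and the others ran from -0.43 (Gsx2) to -0.09 (Gad1). None of these 11 passed the adjusted threshold, and none was at 0. In whole tissue, fewer cells of a type and less RNA per cell cannot be told apart, and the part of cell makeup in the members' values was not tested.

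The genes most like each member in pattern over the 6 libraries were found by the root mean square difference of centred log2 CPM, among 10009 or 10010 genes averaging at least 10 CPM. Malat1 was nearest to Cabp1 (0.0999) and Dmpk (0.123), and Cabp1 shared its high libraries, at 32.8, 37.1 and 34.4 CPM in vehicle replicate 2, BPA replicate 1 and BPA replicate 3 against 22.7 to 24.8 CPM in the rest. Miat was nearest to Cspp1 (0.0333) and BC005561 (next in rank), Gas5 to Ccdc34 (0.0539) and Ercc2 (0.0545), and Sox2ot to Tmem67 (0.0444) and Trim56 (0.0639). For Snhg11 they were Lmbrd2 (0.0381) and Klhl3 (0.0386), and for Pantr1 Timm17a (0.0308) and Gm7535 (0.0364). Neat1 was nearest to Hagh (0.109) and Nhp2l1 (0.115), and Rmst to Diap2 (0.0637) and Zak (0.0836), both members at a level where counting error is large. For scale, the median difference over the genes compared was 0.361 for Malat1 and 0.176 for Pantr1. The likeness is a description over 6 points, and the genes compared were measured in the same libraries.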

How the data were processed

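The deposited values were read counts per gene in 6 libraries. According to the study's methods and processing notes, strand-specific libraries (SureSelect) of total RNA were sequenced as 50-base single-end reads, aligned with TopHat 2.0.14 to GRCm38 and counted with featureCounts on GENCODE models, whose release is not given exactly. Strand use, multiple alignments and selection of polyadenylated RNA are not given in the sources used here. The labels gave the groups, and replicate numbers follow accession order. No samples could be paired.

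In R 4.3.3, edgeR 4.0.16 kept 13741 genes (minimum count 10, minimum total 15), scaled libraries by TMM and tested BPA against vehicle by quasi-likelihood, with Benjamini-Hochberg adjustment over all genes and a threshold of 0.1. CPM values used the scaled library sizes over the genes kept, and log2 CPM values used a prior count of 2. Alternatives used DESeq2 1.42.0, limma-voom 3.58.1, edgeR's exact test, other scalings and filters, and omission of each library. Scripts were tested on simulated counts. Ratios and shares were tested by exact permutation. Symbols were matched to GENCODE M21 (41918 of 45583 rows), which gave positions, lengths and sequences. Counting intervals cover counting error only, and a count of 0 allows up to 3 counts.

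The members and lists were chosen with earlier results of these data known. The genes named are the members, genes inside or beside them, the 3 genes with the smallest p of each list and the 2 genes most like each member. Some genes that this rule gives are not reported here.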

Additional observations from a re-analysis of the deposited data

How the results depend on the processing

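No member passed the adjusted threshold under any of the alternatives other than leaving out both choroid-rich libraries, and the other scalings kept every member's direction. Over all genes the adjusted count of 0 became 19 with no filter on low counts, 3 with DESeq2, 2 with edgeR's exact test, 15 without both choroid-rich libraries, 3 with a term for them, and 0 to 1 when 1 library was left out. At an unadjusted p under 0.05 the count of 302 became 620 with no filter, 162 with at least 10 CPM in 3 libraries, 126 with DESeq2, 954 without both choroid-rich libraries, and 194 to 708 when 1 library was left out, with 708 without vehicle replicate 2 and 563 without BPA replicate 2. Among members that count became 1 with no filter (Miat), 2 without both choroid-rich libraries (Malat1 and Miat, of which 1 passed the adjusted threshold), and 0 to 2 when 1 library was left out. Leaving out vehicle replicate 2 gave Malat1 0.38 (unadjusted p = 0.0428), and leaving out BPA replicate 2 gave Malat1 0.35 (unadjusted p = 0.0440) and Miat 0.40 (unadjusted p = 0.00535), whose range was 0.0037 to 0.40. The filter at 10 CPM removed Rmst and Neat1.

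Log2 fold changes turned sign for Gas5 (0.018 in limma-voom, 0.011 with the choroid term, 0.14 without both choroid-rich libraries, -0.17 to 0.27 leaving out 1 library), for Neat1 (-0.14 without both choroid-rich libraries, -0.065 to 0.56 leaving out 1 library) and, leaving out 1 library, for Malat1 (-0.011 to 0.38), Sox2ot (-0.10 to 0.23) and Snhg11 (-0.078 to 0.12). The log2 ratio of Malat1 to Neat1 turned as well (0.20 without vehicle replicate 2, range -0.44 to 0.42), as did that of Pantr1 to Pou3f3 (0.0034 without vehicle replicate 3, range -0.20 to 0.0034). The causes were not tested. Per length of the longest transcript, Gas5 stood at 53.8, Snhg11 at 5.602, Pantr1 at 7.17, Sox2ot at 11.0 and Rmst at 0.792 CPM per kilobase. Depth limits Rmst and Neat1, at 7 to 37 counts per library. No paired analysis was possible because the labels name no dam or litter, and replicate numbers only follow accession order.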
